A study of Mus musculus with 10 samples.

Results

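Messenger RNA of 7 GABA-A receptor subunit genes was followed across nuclei of adult mouse hippocampus. The genes are those for 4 alpha subunits (Gabra2, Gabra3, Gabra4 and Gabra5), for the delta subunit (Gabrd) and for 2 gamma subunits (Gabrg1 and Gabrg3). They were taken by symbol from the 24837 genes of the deposited count matrix, and all 7 were present. Over all barcodes with at least 500 UMIs (unique molecular identifiers, each marking 1 captured transcript) they held between 1380 UMIs (Gabrd) and 85546 UMIs (Gabrg3).

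GABA-A receptors are chloride channels opened by the transmitter GABA, and they carry most fast inhibition in the brain. Each channel is built from several subunits, usually alpha and beta subunits with a gamma or a delta subunit. Channels with a gamma subunit are typical of synapses, whereas those with delta lie outside synapses and carry a steady inhibition. The alpha subunit sets much of the response to drugs such as benzodiazepines.

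The study profiled nuclei of C57B/6J mice of WT genotype, 4 to 7 months old, with no stimulation, in 10 samples that the labels place in 1 group. The titles of 4 samples call them RNASET2 controls, and the listed strain, genotype, age and tissue of those samples are the same as for the others. Frozen hippocampus was dissociated, nuclei were stained with the DNA dye 7AAD and sorted, and about 5000 per sample entered droplet libraries that read the 3' ends of transcripts. All counts come as 1 matrix whose barcodes carry numeric suffixes 1 to 7, called barcode sets here, and nothing ties a set to a sample. All nuclei were therefore treated as 1 sample without replicates, no test was made, and every interval below covers counting error only.

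The 7 sets differed in depth and in make-up. Sets 2 to 4 had median depths of 7605 to 8176 UMIs per barcode, set 1 had 5477, sets 5 and 6 had 2822 and 2413, and set 7 had 1012. Excitatory and inhibitory neurons made up 99.96% of set 6 and 0.151% of set 7. Cajal-Retzius nuclei, 39 of 108 in set 7, were counted on neither side of the comparison of neurons with non-neuronal nuclei. Between sets, 21 barcode sequences were shared. The 15247 nuclei used fell into 34 clusters, which were named from marker genes without the 7 subunit genes. The names below stand for classes that are like the named cell type by those markers. Classes with at least 50 nuclei ranged from those 108 nuclei to 2500 oligodendrocyte-like nuclei. Dentate granule neurons (2422 nuclei) came from 3 clusters, 1 mostly of set 1, 1 of sets 2 to 4 and 1 of sets 5 and 6, and CA1 neurons (2385) and CA2/CA3 neurons (1237) were split likewise. The 6 dentate markers such as Prox1 summed to 4613 CPM in dentate granule neurons, 266 CPM in CA1 and 295 CPM in CA2/CA3 neurons, but also to 3980 CPM in oligodendrocytes. Nor did the summed level of 3 other lists single out its own class. The Lamp5 list was at 4361 CPM in Lamp5 interneurons, against 19094 CPM in Vip/Cck interneurons, the Pvalb list at 11905 CPM in Sst/Pvalb interneurons, against 19531 CPM in Lamp5 interneurons, and the upper-layer list at 521 CPM in upper-layer neurons, against 2079 CPM in astrocytes. The other 1386 nuclei stayed unnamed. Among them, 725 nuclei of a cluster led by Baiap3, Resp18 and Scg2, with UMIs of both Slc17a6 (76.4 CPM) and Gad2 (200 CPM), made up 23.8% of set 1 and at most 0.461% of any other set.

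Of the 4 alpha subunits, that of Gabra4 differs from the other 3 at the residue that decides on benzodiazepine binding. A histidine there is known to allow binding of classical benzodiazepines such as diazepam, and an arginine to prevent it. The coding stretch around that codon is shown for the 4 alpha subunit genes because it separates Gabra4, which stood apart in dentate granule neurons, from the other 3. It is 45 bases of the longest reading frame of each gene's transcripts in GENCODE M21 (GRCm38), 5′ to 3′, and capitals mark the codon:
Gabra2: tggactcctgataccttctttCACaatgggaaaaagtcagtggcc
Gabra3: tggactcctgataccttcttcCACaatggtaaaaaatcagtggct
Gabra4: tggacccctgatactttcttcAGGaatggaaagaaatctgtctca
Gabra5: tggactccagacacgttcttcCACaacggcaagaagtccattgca
Against Gabra2, and counted from 1 at the 5′ end of the stretch, Gabra4 had the codon changes C22A, A23G and C24G among 13 differences. Gabra3 had 4 differences and Gabra5 had 11, none of them in the codon.

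The genes lie in 4 places on GRCm38, all on the minus strand. Gabrg1 (chromosome 5, 70751047 to 70842617), Gabra2 (70957597 to 71095849) and Gabra4 (71569749 to 71658308) are neighbours. Gabrg3 (chromosome 7, 56716465 to 57387188) lies 20483 bases from Gabra5 (57407672 to 57510059). Gabrd is on chromosome 4 (155384980 to 155398112) and Gabra3 on chromosome X (72432681 to 72656848). Gabrb1, on the opposite strand, overlaps the first 196 bases of Gabra4. Whether strand was used in counting is not given in the sources used here, so the values of Gabra4 and Gabra5 are uncertain as far as genes on the opposite strand overlap them.

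**Figure D1:**
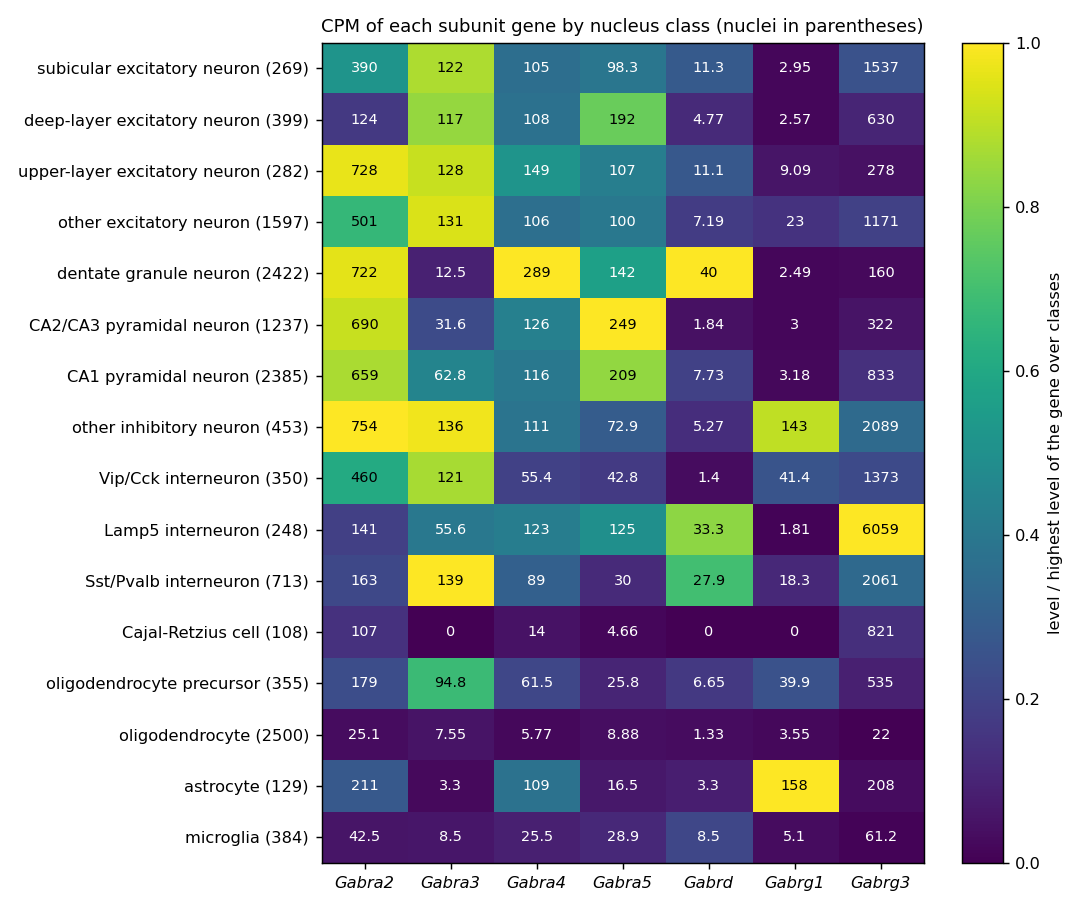
Level of each subunit gene in CPM (UMIs in every 1000000 UMIs of the class, printed in each cell) in the 16 named classes with at least 50 nuclei. Colour gives the level relative to the gene's own highest class and is not comparable between genes. Gabra4 and Gabrd are highest in dentate granule neurons, Gabra5 in CA2/CA3 neurons, Gabrg3 in Lamp5 interneurons and Gabrg1 in astrocytes.

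Levels were taken as a gene's UMIs in every 1000000 UMIs of a class (CPM), with no correction for gene length, and are compared between classes and not between genes. The plot of levels by class shows that no 2 of the 7 genes had the same order of classes.

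Gabra2, whose subunit forms the receptors through which benzodiazepines are known to reduce anxiety in mice, was at a high level in most neurons. It reached 754 CPM (728 to 780, exact Poisson 95% interval) in a class of inhibitory neurons led by Ano1, Prdm16 and Zic1, 728 CPM in upper-layer excitatory neurons and 722 CPM in dentate granule neurons. The intervals of these neighbours overlapped. CA2/CA3 neurons had 690 CPM (676 to 703) and CA1 neurons 659 CPM (646 to 671), which lay apart by counting error but overlapped widely over sets. At the low end among neurons were Cajal-Retzius nuclei (107 CPM, 68.0 to 161, 23 UMIs), deep-layer excitatory neurons (124 CPM, 111 to 138), Lamp5 interneurons (141 CPM) and Sst/Pvalb interneurons (163 CPM). A cluster of 293 excitatory nuclei led by Vwc2l and Sntb1 had 61.6 CPM. Oligodendrocytes had 25.1 CPM (20.7 to 30.2).

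The Gabra2 level varied more between sets than between the main hippocampal classes. In dentate granule neurons it was 531, 861, 788, 804, 552 and 418 CPM in sets 1 to 6. In CA2/CA3 neurons it was 537, 758, 806, 751, 508 and 351 CPM, and in CA1 neurons 496, 775, 830, 729, 472 and 399 CPM. In each of the 3 classes sets 2 to 4, which were also the deepest, lay above sets 1, 5 and 6 without overlap. What part depth had in this was not tested.

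**Figure D2:**
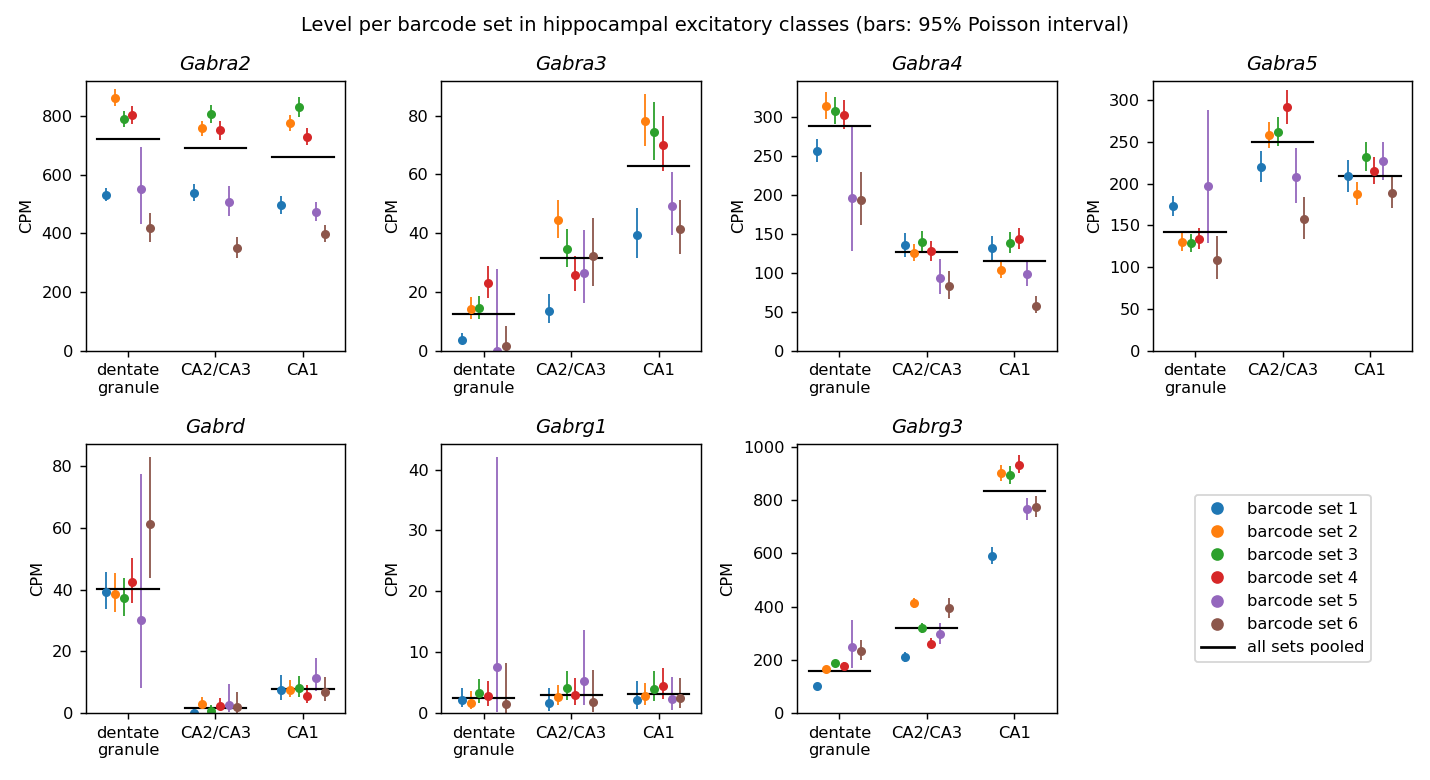
CPM of each subunit gene in dentate granule, CA2/CA3 and CA1 neurons, 1 point per barcode set with its exact Poisson 95% interval, and a line at the level of all sets pooled. Gabra2 splits by set in the same way in all 3 classes (531, 537 and 496 CPM in set 1 against 861, 758 and 775 CPM in set 2), whereas Gabra4 and Gabrd are higher in dentate granule neurons in every set.

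Gabra3, whose subunit is common in cortex and in monoaminergic nuclei, was low in the dentate gyrus and high in most other neurons. Its 7 highest classes had levels of 117 to 139 CPM with overlapping neighbours, and were Sst/Pvalb and Vip/Cck interneurons, the Zic1 inhibitory class and the 4 excitatory classes other than dentate granule, CA1 and CA2/CA3 neurons. CA1 neurons had 62.8 CPM (59.0 to 66.8), CA2/CA3 neurons 31.6 CPM (28.8 to 34.7) and dentate granule neurons 12.5 CPM (10.9 to 14.4). The dentate level was 3.81, 14.2, 14.4, 22.9, 0 and 1.49 CPM in sets 1 to 6, against 7.55 CPM (5.23 to 10.6) in oligodendrocytes. The intervals of sets 1 (2.22 to 6.11), 5 (0 UMIs, up to 27.9) and 6 (0.0378 to 8.31) overlapped that of oligodendrocytes. Cajal-Retzius nuclei had no Gabra3 UMI, which allows a level of up to 17.2 CPM. Lamp5 interneurons, at 55.6 CPM (44.8 to 68.2), lay below the other interneuron classes. Oligodendrocyte precursors had 94.8 CPM (78.2 to 114), from 114 UMIs.

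Gabra4, which pairs with delta in dentate granule neurons in rodents, was highest there at 289 CPM (281 to 297). The next class, upper-layer excitatory neurons, had 149 CPM (137 to 162). In sets 1 to 6 the dentate level was 257, 314, 308, 303, 197 and 194 CPM, and the lowest of these was above both sets of the next class (134 and 182 CPM). Below that, 9 classes from CA2/CA3 neurons (126 CPM) to Sst/Pvalb interneurons (89.0 CPM) formed a plateau in which neighbours had overlapping intervals. Astrocytes stood within this plateau at 109 CPM (75.0 to 153), from 33 UMIs. Vip/Cck interneurons were lower at 55.4 CPM (45.9 to 66.3).

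Gabra5, whose subunit is known for its part in tonic inhibition of pyramidal neurons and in hippocampal learning, was highest in CA2/CA3 neurons at 249 CPM (241 to 258). CA1 neurons followed at 209 CPM (202 to 216), deep-layer neurons at 192 CPM (176 to 209) and dentate granule neurons at 142 CPM (136 to 148). Over sets these neighbours overlapped, with 157 to 291 CPM in CA2/CA3, 188 to 231 CPM in CA1, 172 to 245 CPM in deep-layer and 109 to 197 CPM in dentate granule neurons. Among interneurons, Lamp5 nuclei had 125 CPM (108 to 143), the Zic1 class 72.9 CPM, Vip/Cck 42.8 CPM and Sst/Pvalb 29.98 CPM (25.5 to 35.1).

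Gabrd, for the delta subunit, was sparse and high in few classes. Dentate granule neurons had 40.0 CPM (37.0 to 43.2, 659 UMIs), Lamp5 interneurons 33.3 CPM (25.0 to 43.3, 55 UMIs) and Sst/Pvalb interneurons 27.9 CPM (23.5 to 32.8, 146 UMIs). Neighbouring intervals overlapped among these 3, and the next class, subicular neurons, stood apart at 11.3 CPM (7.16 to 17.0). At a finer clustering described below, the Sst/Pvalb class split into Pvalb nuclei at 49.7 CPM (41.2 to 59.4) and Sst nuclei at 9.28 CPM. The Pvalb interval overlapped that of dentate granule neurons. CA1 neurons had 7.73 CPM and CA2/CA3 neurons 1.84 CPM (1.21 to 2.68, 27 UMIs). Vip/Cck interneurons, at 1.40 CPM from 3 UMIs, did not differ from oligodendrocytes (1.33 CPM from 6 UMIs) beyond counting error. The dentate level was 39.3, 38.7, 37.1, 42.4, 30.2 and 61.1 CPM in sets 1 to 6, against at most 11.6 CPM in any set of CA1 and at most 3.09 CPM in any set of CA2/CA3.

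Gabrg1, for a gamma subunit of some glia and of subcortical neurons, was low in all hippocampal excitatory neurons and high in few classes. Astrocytes had 158 CPM (117 to 210, 48 UMIs in 129 nuclei) and the Zic1 inhibitory class 143 CPM (132 to 155, 626 UMIs), with overlapping intervals. Vip/Cck interneurons had 41.4 CPM (33.3 to 51.0) and oligodendrocyte precursors 39.9 CPM (29.4 to 52.9). Dentate granule, CA1 and CA2/CA3 neurons had 2.49, 3.18 and 3.001 CPM, which overlapped the 3.55 CPM of oligodendrocytes. The Zic1 class held nuclei of sets 1 to 4 alone, with 196, 118 and 73.5 CPM in sets 1, 2 and 3. The Vip/Cck level spanned 5.54 to 77.5 CPM over 4 sets. A small cluster of 43 excitatory nuclei led by Ebf2 and Ebf3 had 186 CPM.

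Gabrg3, for a gamma subunit less studied than the others, had its highest level in Lamp5 interneurons at 6059 CPM (5941 to 6179), or 10022 UMIs in 248 nuclei. The next classes, the Zic1 class (2089 CPM) and Sst/Pvalb interneurons (2061 CPM), overlapped each other and lay far below. Subicular neurons (1537 CPM) and Vip/Cck interneurons (1373 CPM) followed. CA1 neurons had 833 CPM (819 to 848), CA2/CA3 neurons 322 CPM (313 to 331), upper-layer neurons 278 CPM (261 to 296) and dentate granule neurons 160 CPM (154 to 166). In dentate granule neurons it was 103, 166, 188, 176, 249 and 236 CPM in sets 1 to 6, against 592, 902, 893, 934, 767 and 775 CPM in CA1 neurons, with no overlap. The cluster led by Vwc2l, low in Gabra2, was the highest excitatory cluster for Gabrg3.

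Shares of nuclei with a UMI depend on depth, so nuclei were also thinned to 1000 UMIs each, leaving out shallower ones, which kept 2403 of 2422 dentate granule, 2383 of 2385 CA1, 248 of 248 Lamp5 and 1959 of 2500 oligodendrocyte nuclei. Gabrg3 was then seen in 89.9% (85.5 to 93.4, exact binomial interval) of Lamp5 interneurons, 50.7% (48.7 to 52.8) of CA1 neurons, 14.1% of dentate granule neurons and 2.25% of oligodendrocytes. Gabra2 was seen in 46.9%, 37.8% and 2.65% of dentate granule neurons, CA1 neurons and oligodendrocytes. Slc17a7, which codes for a vesicular glutamate transporter and should be missing from oligodendrocytes, was seen in 3.01% of thinned oligodendrocytes. The shares of Gabrg3 and Gabra2 there lay below that of Slc17a7 and are not read as expression, and ratios over oligodendrocytes have denominators at this level. Before thinning, median depths were 6337 UMIs in dentate granule neurons and 1664 in oligodendrocytes, and Gabra2 was seen in 87.1% and 4.16% of these nuclei.

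Ratios of CPM between classes were then formed, with exact 95% intervals for 2 counts, and a gene with at least 100 UMIs over both sides was counted when it differed at least 2-fold. In neurons over non-neuronal nuclei (10355 against 3398 nuclei), 6 of the 7 subunit genes were at least 2-fold higher, with none lower by 2-fold or more. Over all 13605 genes that met the minimum, 18.8% lay past 2-fold upwards and 21.7% past 2-fold downwards. The median log2 ratio was 2.74 over the subunit genes and -0.23 over all genes. Gabra5 was highest in ratio, at 154 CPM in neurons and 14.1 CPM in non-neuronal nuclei (10.9-fold, 8.90 to 13.5), and Gabra2 was next, at 590 and 63.0 CPM (9.36-fold, 8.502 to 10.3). Gabra3 had the lowest of the 6 ratios, 3.15 (2.68 to 3.72). With each nucleus named from its own marker UMIs in place of its cluster, all 6 stayed past 2-fold but were smaller, with log2 ratios from 1.02 for Gabra3 to 1.74 for Gabra5, against 1.65 and 3.45 by cluster. All 6 were higher in each of the 5 sets that could be compared, those with at least 50 nuclei on each side and 10 UMIs in all. Gabrd rested on 20 UMIs in non-neuronal nuclei, and its log2 ratio was 2.31, against 3.004 without set 3.

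Gabrg1 did not follow, with 15.6 CPM in neurons and 17.3 CPM in non-neuronal nuclei (ratio 0.904, 0.747 to 1.10), above 1 in 2 sets and below 1 in 3. Without the Zic1 inhibitory class, an alternative chosen after seeing the data, its log2 ratio was -1.07 and 1 gene was at least 2-fold lower. As UMIs per nucleus with no scaling to depth, all 7 genes were higher in neurons, Gabrg1 by 1.84 on the log2 scale.

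Of 11 other GABA-A subunit genes, 6 had enough UMIs, of which 5 were past 2-fold higher in neurons and 1 past 2-fold lower. Gabrr2, for a rho subunit known from retina, was 88.8-fold lower (68.8 to 116). Of 13 genes for anchoring and trafficking of the receptor, 2 were at least 2-fold higher. In this list 3 were at least 2-fold lower, led by Plcl1 (19.9-fold lower), whose protein binds receptor subunits. Of 12 genes for GABA-B receptors and for GABA and chloride handling, 3 were at least 2-fold higher, with 5 lower by 2-fold or more. The chloride exporter gene Slc12a5 was 5.80-fold higher, and the chloride importer gene Slc12a2 was 12.1-fold lower in neurons.

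**Figure D3:**
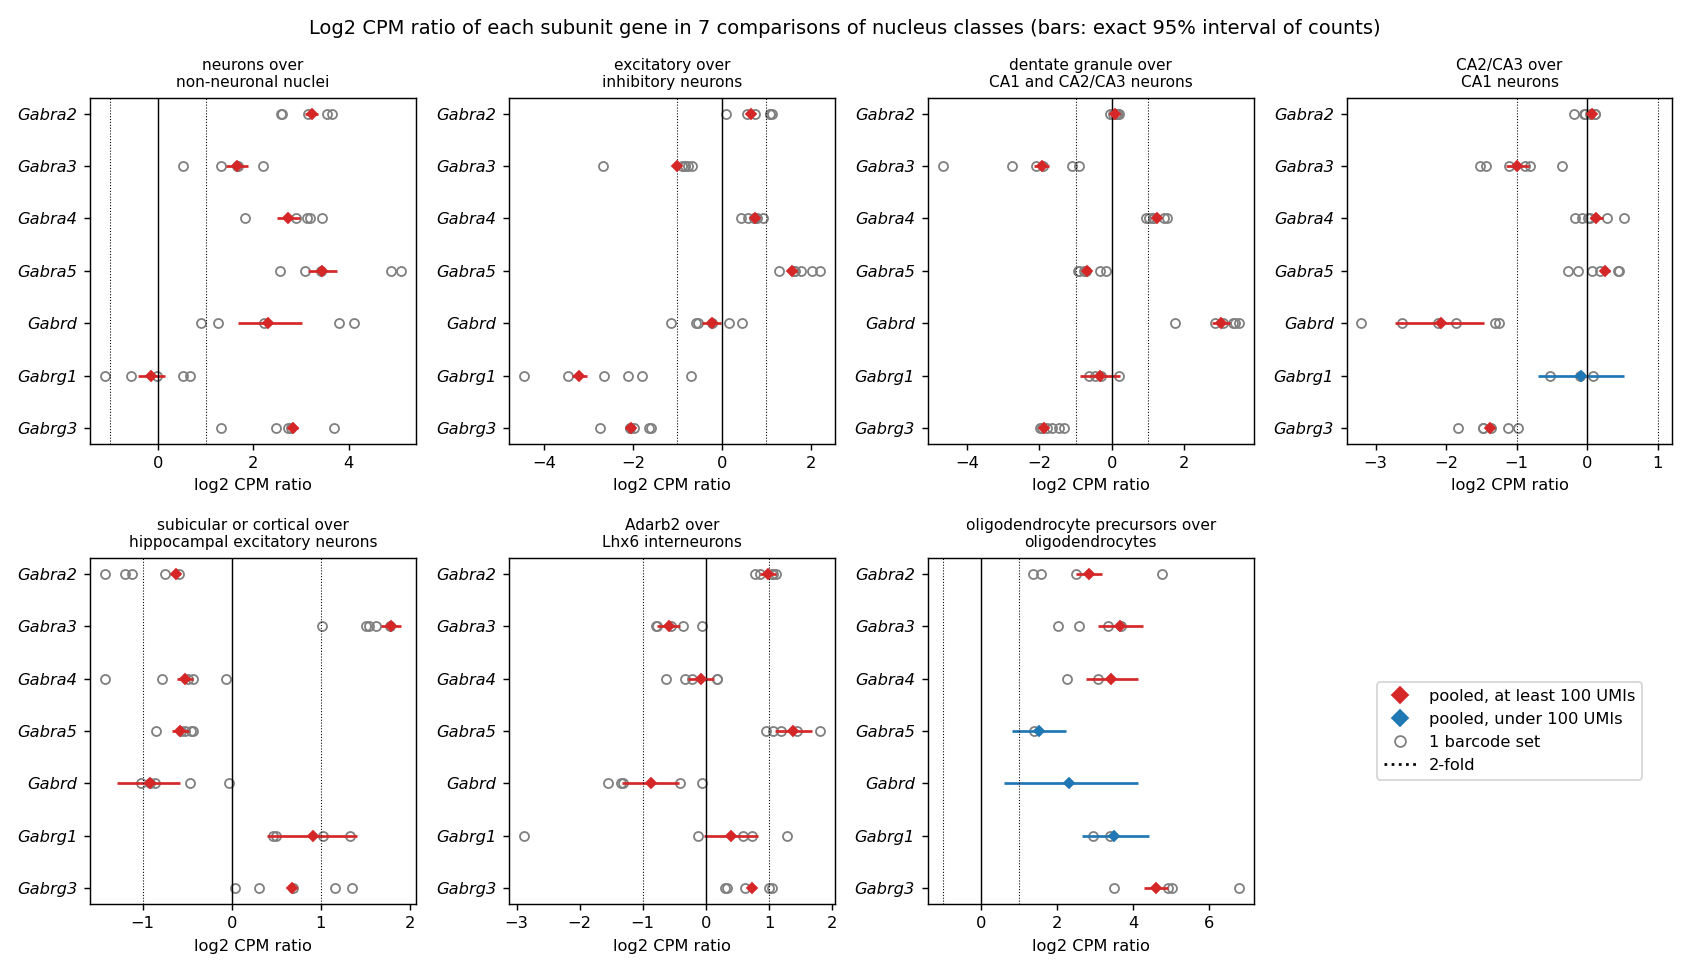
Log2 ratio of CPM of each subunit gene in 7 comparisons of classes, named first class over second. Diamonds give all sets pooled with an exact 95% interval, red where both sides held at least 100 UMIs together and blue otherwise, open circles give single sets with at least 10 UMIs, and dotted lines mark 2-fold. Gabra5 lies above 0 and Gabrg1 and Gabrg3 below 0 in all sets in excitatory over inhibitory neurons.

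In excitatory over inhibitory neurons (8591 against 1764 nuclei), 1 subunit gene was at least 2-fold higher, with 3 lower by 2-fold or more. Over all 13190 genes, 6.82% lay past 2-fold upwards and 7.85% past 2-fold downwards. Log2 ratios had a median of -0.22 over the subunit genes and -0.09 over all genes. Gabra5 was higher, at 174 CPM in excitatory and 57.7 CPM in inhibitory neurons (3.01-fold, 2.80 to 3.24), in 6 of 6 sets. Gabrg1 was lower, at 6.57 and 60.7 CPM (9.25-fold lower, 8.23 to 10.4), and so was Gabrg3, at 594 and 2453 CPM (4.13-fold lower, 4.07 to 4.19), each in 6 of 6 sets.

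Gabra3 sat at the threshold, with 62.4 CPM in excitatory and 125 CPM in inhibitory neurons (2.002-fold lower, 1.89 to 2.12). It was under 2-fold under 6 alternatives, at log2 -0.97 to -0.81. One of these left out set 1, which alone was at -2.68 (-0.84 without it). Set 1 held 1 nucleus in all of the subicular, deep-layer and upper-layer classes. Gabra2 (1.57-fold) and Gabra4 (1.69-fold) were higher in all 6 sets but under 2-fold, and Gabrd had a ratio of 0.856 (0.740 to 0.994).

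The Zic1 class, absent from sets 5 and 6, carried much of the inhibitory values of 2 genes. Without it, the log2 ratio of Gabra2 was 1.45, against 0.65 with it, so that 2 subunit genes were then at least 2-fold higher. That of Gabrg1 was -1.66, against -3.21 with it. With nuclei named from their own markers Gabrg1 was at -1.63.

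None of the other GABA-A subunit genes (5 with enough UMIs) and none of the 13 anchoring and trafficking genes differed 2-fold between excitatory and inhibitory neurons. Of 12 genes for GABA-B receptors and GABA and chloride handling, 1 was at least 2-fold higher, with 4 lower by 2-fold or more. The last include Abat (5.26-fold lower), for the enzyme that degrades GABA.

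In dentate granule over CA1 and CA2/CA3 neurons (2422 against 3622 nuclei), 2 subunit genes were at least 2-fold higher, with 2 lower by 2-fold or more. Over all 11951 genes, 6.44% lay past 2-fold upwards and 8.75% past 2-fold downwards. The median log2 ratio was -0.31 over the subunit genes and 0.04 over all genes. Gabrd was 8.14-fold higher (6.81 to 9.78), at 40.0 CPM in dentate granule neurons and 4.92 CPM in CA neurons. Gabra4 was 2.39-fold higher (2.29 to 2.50), at 289 and 121 CPM. Both were higher in 6 of 6 sets.

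The lower genes were Gabra3, at 12.5 CPM in dentate granule and 47.9 CPM in CA neurons (3.83-fold lower, 3.31 to 4.45), and Gabrg3, at 160 and 589 CPM (3.69-fold lower, 3.54 to 3.84). Gabra5 was lower in 6 of 6 sets but under 2-fold (1.61-fold lower, 1.54 to 1.69), and Gabra2 had a ratio of 1.07 (1.05 to 1.10). As UMIs per nucleus with no scaling, Gabra4 was at log2 0.94 and no longer past 2-fold, whereas Gabra5 was then past 2-fold downwards. Of the other GABA-A subunit genes, 0 of 5 were past 2-fold. In the anchoring and trafficking list 1 of 13 was higher, Plcl1 (6.12-fold), and the chloride channel gene Clcn2 was 2.12-fold lower.

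Gabra4 and Gabrd are known as partners in extrasynaptic receptors of dentate granule neurons, and their transcripts were looked for in the same nuclei. In 2403 dentate granule nuclei thinned to 1000 UMIs, Gabra4 was seen in 23.0%, Gabrd in 4.08% and both in 1.17% (0.776 to 1.68), or 28 nuclei. The product of the single shares was 0.939%, within that interval. In CA1 and CA2/CA3 nuclei both were seen in 0 of 2383 and 0 of 1211 nuclei, with upper limits of 0.155% and 0.304%, which lie above the products of 0.0391% and 0.0371%. Gabra5 and Gabrg3 were seen together in 9.82% (8.65 to 11.1) of CA1 nuclei, against a product of 9.60%. For all 16 pairs and classes looked at, the product lay within the interval of the joint share. In CA1 and CA2/CA3 nuclei the products for Gabra4 and Gabrd come to 0.932 and 0.449 nuclei, too few for a lower joint share to be seen at this depth.

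In CA2/CA3 over CA1 neurons (1237 against 2385 nuclei), none of the 6 subunit genes with enough UMIs was at least 2-fold higher, with 2 lower by 2-fold or more. Over all 11088 genes, 5.56% lay past 2-fold upwards and 3.48% past 2-fold downwards. Log2 ratios had a median of -0.46 over those 6 genes and -0.01 over all genes. Gabrd was 4.20-fold lower (2.75 to 6.63), at 1.84 CPM in CA2/CA3 and 7.73 CPM in CA1 neurons, and Gabrg3 was 2.59-fold lower (2.50 to 2.68), at 322 and 833 CPM. Both were lower in 6 of 6 sets. After thinning, Gabrd was at log2 -0.48 from 15 UMIs, and with no scaling to depth Gabrg3 was at -0.55 and Gabra5 at 1.08.

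Gabra3 was just under the threshold (1.98-fold lower, 1.78 to 2.22), also in 6 of 6 sets. It passed it at the finer clustering described next (log2 -1.84), so that 3 subunit genes were then lower, and with nuclei named from their own markers (-1.46). Gabra2, Gabra4 and Gabra5 had ratios of 1.05, 1.09 and 1.196 with sets on both sides of 1. Among the other GABA-A subunit genes, 0 of 5 were at least 2-fold higher, with 1 lower by 2-fold or more. Plcl1 was 3.91-fold and Slc12a2 3.105-fold higher in CA2/CA3 neurons.

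At a finer clustering (resolution 2 in place of 1) 2 clusters made up wholly of nuclei from the CA2/CA3 class, mostly of sets 2 to 4, differed sharply in Gabrg3. A cluster of 277 nuclei led by Vgll3, Col6a1 and Glod5 had 692 CPM of Gabrg3 (668 to 715). A cluster of 296 nuclei led by Nectin3, Mndal and Ifi203 had 35.3 CPM (30.5 to 40.7). The values were 779, 600 and 775 CPM in sets 2, 3 and 4 of the Vgll3 cluster, and 67.6, 23.5 and 13.01 CPM in those of the Nectin3 cluster. Gabra3 was also higher in the Vgll3 cluster (55.3 CPM, 48.8 to 62.3) than in the Nectin3 cluster (16.3 CPM, 13.1 to 20.05), whereas Gabra2 was at 739 and 781 CPM. The Vgll3 cluster was not named CA2/CA3 by its markers at this resolution, and there the log2 ratio of Gabrg3 in CA2/CA3 over CA1 neurons was -2.71, and that of Gabrd -3.84. The CA2/CA3 level of Gabrg3 is thus a mean over clusters with unlike levels. Those in between had 390 CPM (501 nuclei, mostly of sets 5 and 6) and 128 CPM (111 nuclei, mostly of set 1). Whether the Vgll3 cluster belongs to CA2/CA3 was not tested.

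In subicular or cortical over hippocampal excitatory neurons (950 against 6044 nuclei), 1 subunit gene was at least 2-fold higher, with none lower by 2-fold or more. The remaining excitatory class (1597 nuclei), of no named subtype, entered neither side. The subicular markers summed to 2099 CPM in it, against 2856 CPM in subicular neurons. It had 501 CPM of Gabra2, 131 of Gabra3, 106 of Gabra4, 100 of Gabra5, 7.19 of Gabrd, 23.0 of Gabrg1 and 1171 of Gabrg3. Over all 12303 genes, 5.36% lay past 2-fold upwards and 6.15% past 2-fold downwards. The median log2 ratio was -0.53 over the subunit genes and -0.05 over all genes. Gabra3 was 3.46-fold higher (3.19 to 3.74), at 123 CPM in subicular or cortical and 35.6 CPM in hippocampal neurons, in 5 of 5 sets. Its log2 ratio was 1.01 to 1.78 over those sets, below the pooled 1.79 in each. Gabrg3 was 1.60-fold higher (1.55 to 1.65) in 5 of 5 sets, and log2 1.06 without set 2. Gabra2 (1.55-fold lower), Gabra4 (1.44-fold), Gabra5 (1.49-fold) and Gabrd (1.90-fold) were lower in 5 of 5 sets. Gabrg1 was 1.88-fold higher (1.31 to 2.66) from 45 UMIs, and log2 1.07 without set 3.

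The subicular and cortical classes differed among themselves. Gabra2 had 390, 124 and 728 CPM in subicular, deep-layer and upper-layer neurons, and Gabrg3 had 1537, 630 and 278 CPM. Upper-layer neurons thus had much Gabra2 and little Gabrg3, and so did dentate granule neurons (722 and 160 CPM). In the other lists 0 of 30 genes were at least 2-fold higher, and 4 were at least 2-fold lower, among them Slitrk3 (2.59-fold), for a postsynaptic adhesion protein of inhibitory synapses.

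In Adarb2 over Lhx6 interneurons, that is Vip/Cck and Lamp5 nuclei (598) against Sst/Pvalb nuclei (713), 1 subunit gene was at least 2-fold higher, with none lower by 2-fold or more. Over all 8411 genes, 3.23% lay past 2-fold upwards and 4.16% past 2-fold downwards. Log2 ratios had a median of 0.40 over the subunit genes and -0.03 over all genes. Gabra5 was 2.61-fold higher (2.15 to 3.19), at 78.4 CPM in Adarb2 and 29.98 CPM in Lhx6 interneurons, in 5 of 5 sets, and log2 0.72 after thinning. Gabra2 was just under the threshold (1.97-fold higher, 1.81 to 2.16), and passed it without set 2 (log2 1.04). Gabrg3 was 1.66-fold higher (1.61 to 1.70). With nuclei named from their own markers its direction turned (log2 -0.42), and Gabra5 was at 0.99. Gabrd was 1.83-fold lower (1.34 to 2.52) in 5 of 5 sets, and passed 2-fold without set 3 (log2 -1.08). Of the other lists, 2 of 28 genes stood past 2-fold higher, including the GABA-B auxiliary subunit gene Kctd16 (4.06-fold), and 1 at least 2-fold lower.

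Adarb2 and Lhx6 serve here as names of the sides, and the marker lists did not place Lamp5 nuclei clearly on the Adarb2 side. The Vip/Cck list, which includes Adarb2, summed to 2857 CPM in Lamp5 nuclei, against 19426 CPM in Vip/Cck nuclei. The Sst list, which includes Lhx6, summed to 4120 CPM in Lamp5, 4324 CPM in Sst/Pvalb and 787 CPM in Vip/Cck nuclei. Each side of this comparison also held classes with unlike subunit levels. Lamp5 and Vip/Cck nuclei had 6059 and 1373 CPM of Gabrg3, 33.3 and 1.40 CPM of Gabrd, 141 and 460 CPM of Gabra2, and 1.81 and 41.4 CPM of Gabrg1. At the finer clustering, Sst/Pvalb nuclei split into 199 nuclei with Pvalb markers, almost all of sets 2 to 4, and 513 with Sst markers. Within those sets, Gabrg3 was 2963, 3568 and 3072 CPM in the Pvalb nuclei, and 741, 732 and 354 CPM in the Sst nuclei. Gabrd was 37.3, 46.1 and 61.9 CPM in the Pvalb nuclei, against 2.97, 0 and 5.74 CPM in the Sst nuclei. Gabra4 was likewise higher in the Pvalb nuclei, at 137, 137 and 164 CPM, against 34.2, 39.6 and 28.7 CPM in the Sst nuclei. None of these 3 genes overlapped between the clusters over the 3 sets. In sets 5 and 6, which had hardly any nuclei in the Pvalb cluster, the Sst cluster had 1962 and 1908 CPM of Gabrg3, values between those of the Sst and Pvalb clusters of sets 2 to 4.

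**Figure D4:**
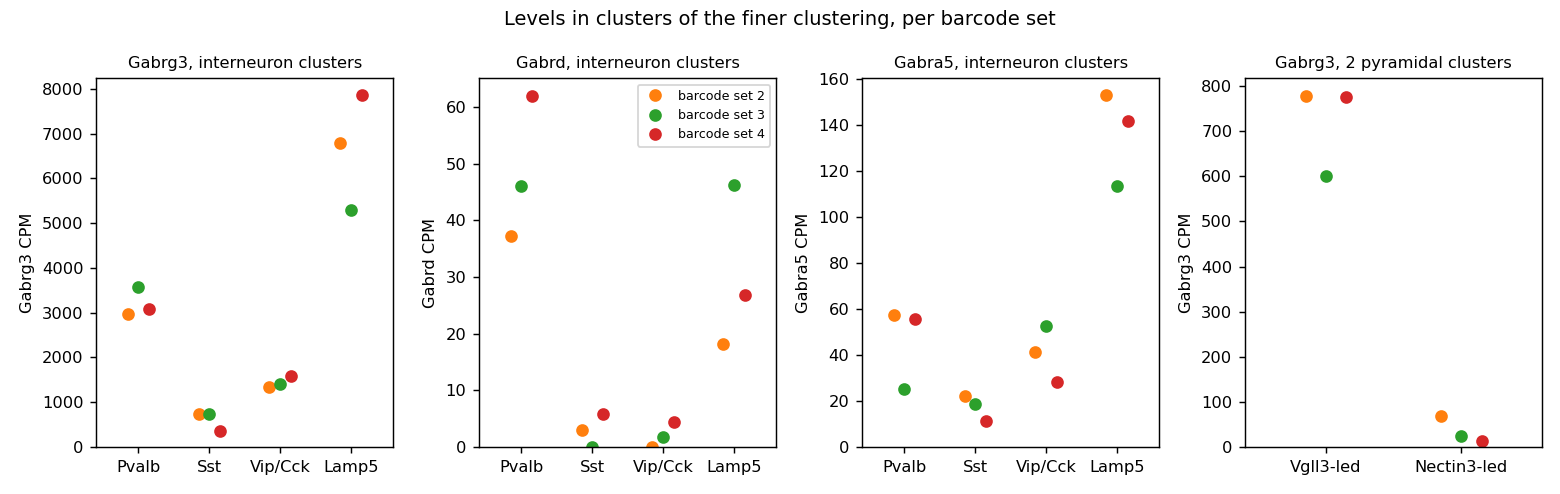
CPM of Gabrg3, Gabrd and Gabra5 in the Pvalb, Sst, Vip/Cck and Lamp5 clusters of the finer clustering, and of Gabrg3 in 2 pyramidal clusters, 1 point for each of barcode sets 2, 3 and 4. Pvalb and Lamp5 nuclei lie above Sst and Vip/Cck nuclei for Gabrg3 and Gabrd in each of the 3 sets, and the Vgll3 cluster lies above the Nectin3 cluster (600 to 779 against 13.01 to 67.6 CPM).

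In oligodendrocyte precursors over oligodendrocytes (355 against 2500 nuclei), all 4 subunit genes with enough UMIs were at least 2-fold higher, with none lower by 2-fold or more. Over all 7232 genes, 15% lay past 2-fold upwards and 16.6% past 2-fold downwards. The median log2 ratio was 3.53 over those 4 genes and -0.19 over all genes. Gabrg3 was 24.3-fold higher (19.7 to 30.4), at 535 CPM in precursors and 22.0 CPM in oligodendrocytes. In the 4 sets with 50 nuclei on both sides, precursors had 572, 420, 831 and 582 CPM, against 5.22, 36.9, 27.4 and 17.9 CPM in oligodendrocytes of the same sets. The 831 CPM came from 61 nuclei of set 5. At the finer clustering, 56 nuclei of set 5 in the precursor cluster had 524 CPM, and that cluster had 496 CPM over all sets. Gabra3 was 12.6-fold higher (8.495 to 19.0), at 94.8 and 7.55 CPM. Gabrg1, with 48 UMIs in precursors and 16 in oligodendrocytes, was too sparse to be counted and had a ratio of 11.2 (6.27 to 21.2).

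These ratios depended on how precursors and oligodendrocytes were delimited, as did those of Gabra2 (7.13-fold higher) and Gabra4 (10.7-fold). With each nucleus named from its own marker UMIs, Gabrg3 was at log2 0.87, against 4.60 by cluster, and no longer past 2-fold. Gabra3 was at 2.26, against 3.65, and Gabra5, too sparse by cluster, at -2.74, against 1.54. Gabra2 and Gabra4 were at -1.03 and -0.19, so that 2 subunit genes were higher and 2 lower. With doublets kept, Gabrg3 was at 3.75 and Gabra2 at 1.75. By the median over sets, Gabra2 was at 2.04, Gabra3 at 2.96 and Gabra4 at 1.63, against 2.83, 3.65 and 3.41 pooled. Slc17a7 and Gad2, markers of excitatory and inhibitory neurons, were at 33.3 and 31.6 CPM in precursors and 24.9 and 9.99 CPM in oligodendrocytes, and their part in the result was not tested. At the finer clustering 23 nuclei of the precursor class fell in an unnamed cluster with both glutamatergic and GABAergic markers. That cluster as a whole (265 nuclei) had 384 CPM of Gabra2 and 135 CPM of Gabra4. The precursor cluster then had 328 nuclei. Its level was 99.2 CPM for Gabra2 and 25.9 CPM for Gabra4, against 179 and 61.5 CPM before. In the same step Gabra3 was at 106 CPM and Gabrg1 at 42.8 CPM, against 94.8 and 39.9 CPM before.

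Of the other GABA-A subunit genes, 5 of 6 were at least 2-fold higher in precursors, led by Gabrb2 (24.1-fold) and Gabrb1 (11.4-fold), for beta subunits, and Gabrr2 was 13.1-fold lower. In the anchoring list 2 of 11 stood past 2-fold higher, including Nlgn2 (5.91-fold), for an adhesion protein of inhibitory synapses, and 2 were at least 2-fold lower. In the list of GABA-B receptors and GABA and chloride handling, 1 of 9 was at least 2-fold higher (Gabbr2, 13.05-fold) and 3 were at least 2-fold lower.

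Across the 16 named classes, the genes most like each subunit gene were taken by Pearson correlation of log2(CPM + 1) among genes not used in clustering. These points share libraries and depth, and the values are a description. Gabra5 was most like Camkv (r = 0.954), for a vesicle-associated kinase-like protein, and Rbfox3 (0.927), for the neuronal nuclear protein NeuN. Gabra3 was most like the T-type calcium channel gene Cacna1g (0.940), and Gabra4 most like the cytoskeletal linker gene Plec (0.938) and Trim9 (0.937). Gabra2 was most like Tnks1bp1 (0.889), and Gabrg3 was most like Zmat3 (0.905) and Clstn3 (0.902). Gabrd had the loosest matches, with B4galt5 (0.755) and Tiam1 (0.736) first, and Gabrg1 was most like Polr3k (0.849). Among the subunit genes themselves, Gabra2 and Gabra4 were most alike (0.795), followed by Gabra4 and Gabra5 (0.791), and Gabra5 and Gabrg1 least (-0.126).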

How the data were processed

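The deposited values are UMI counts per gene and barcode, made by the authors with Cell Ranger 4.0.0 on mm10/GRCm38, per the file headers and the submitters' processing notes. How introns and strand were handled, and the annotation release, is not given in the sources used here. Counts covered 24837 genes and 15661 barcodes, with 1305838 to 26207554 UMIs per barcode set.

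Barcodes with at least 500 UMIs, 300 genes and under 5% mitochondrial UMIs were kept (15553). Scrublet (scanpy 1.11.5) marked 306 doublets, which were removed. It marked 0.177, 0.495 and 0.300% of sets 2, 5 and 7, where it is not taken to have worked. The 15247 nuclei left were clustered by the Leiden method (resolution 1, 15 neighbours, 30 components) on 2119 features that held neither the 7 subunit genes nor the listed GABA genes. Clusters were named from fixed marker lists. The naming rule and its thresholds were built over several rounds with cluster values in view, and the subunit genes and lists were chosen with earlier results of these data known.

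Counts were summed per class, divided by the class total (CPM) and compared as ratios with exact conditional intervals at the 95% level (scipy 1.17.1). A gene was counted past a 2-fold ratio if the sides together held 100 UMIs or more. The ratio calculation was tested on simulated data. All 7 subunit genes were named in each comparison, with at most 4 genes of a list in each direction past 2-fold, and the 5 genes most like each subunit gene among those with at least 500 UMIs. Coordinates and transcript sequences came from GENCODE M21, in which 24715 gene identifiers matched. Alternatives covered depth, doublets, scaling, pooling, clustering, naming and each barcode set left out. Some genes of the lists are not reported here by name.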

Additional observations from a re-analysis of the deposited data

Results flagged for a closer look

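For Gabra3 in excitatory over inhibitory neurons, barcode set 1 had a log2 ratio of -2.68, far from the other sets. That set had no subicular or upper-layer nuclei and 1 deep-layer nucleus, and these classes are high in Gabra3. Their part in the ratio was not tested.

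For Gabrd in dentate granule over CA1 and CA2/CA3 neurons, barcode set 5 had a log2 ratio of 1.77, below the other sets, from 54 dentate granule nuclei. The criterion behind this and the value of Gabra3 above marks about 1 in 20 groups by chance.

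The unnamed nuclei, which enter no comparison, also held the subunit transcripts. They had 405 CPM of Gabra2, 96.6 CPM of Gabra3, 94.0 CPM of Gabra4, 71.6 CPM of Gabra5, 10.6 CPM of Gabrd, 80.6 CPM of Gabrg1 and 836 CPM of Gabrg3. The cluster of 725 nuclei led by Baiap3, nearly all of set 1, had most of the Gabrg1 among them, at 155 CPM (145 to 166). It also had 1295 CPM of Gabrg3, 444 CPM of Gabra2, 164 CPM of Gabra3 and 3.79 CPM of Gabrd.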

How the results depend on the processing

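No paired analysis was possible because the 10 samples form 1 group and no test was made; ratios within each barcode set stand in the report. Of 749 alternative values of single ratios, 552 stayed within the counting interval of the reported ratio and 197 did not. Among all 749, 23 changed sign, and 2 of the 23 had been past 2-fold with at least 100 UMIs. Of the 23, 13 were for Gabrg1 and 10 came with nuclei named from their own markers. Some of the 23 belong to both of these groups and some to neither. With nuclei named from their own marker UMIs, the log2 ratios in oligodendrocyte precursors over oligodendrocytes were -1.03 for Gabra2 and -0.19 for Gabra4, with 2 subunit genes higher and 2 lower. The same naming gave 3 higher and 1 lower in subicular or cortical over hippocampal neurons, and 2 higher and 1 lower in Adarb2 over Lhx6 interneurons. Without the Zic1 cluster, chosen after seeing the data, 1 gene was lower in neurons and 2 were higher in excitatory neurons. With unscaled UMIs, 1 was higher in dentate granule neurons, 1 higher and 1 lower in CA2/CA3 over CA1, 2 higher in subicular or cortical neurons and 1 lower in Adarb2 interneurons. Thinned, 1 was lower in CA2/CA3 over CA1, 1 lower in subicular or cortical neurons and 0 higher in Adarb2 interneurons. By the median over sets, 1 was lower in subicular or cortical neurons, and 2 were higher and 1 lower in Adarb2 interneurons. At Leiden resolution 2, 2 were higher and 1 lower in subicular or cortical neurons. Leaving out each set in turn gave 1 to 2 higher in subicular or cortical and in Adarb2 neurons, and 0 to 1 lower in Adarb2 neurons. With no minimum of UMIs, 7 were higher in oligodendrocyte precursors, among them Gabrd from 8 against 6 UMIs and Gabra5 from 31 against 40. Shares over all genes were not taken under the alternatives, so these counts have none to be set against. The cause of the changes in count was not tested. Gabrd and Gabrg1 rest on few UMIs, which limits what this depth can show.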
